A study of Mus musculus with 8 samples.

Results

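The enzymes and carriers that burn fatty acids in mitochondria and peroxisomes were followed in iWAT, the inguinal white fat depot under the skin of the groin, of mice that lack the SUMO protease Senp2 in adipocytes. The members were 50 genes chosen for this pathway, and every array probe whose RefSeq accession led to one of these symbols was used. All 50 genes had a probe, and 49 of them were measured among the 14730 genes tested. Acsl6, an acyl-CoA synthetase best known from brain, was the exception: neither of its 2 probes rose above background on any of the 8 arrays.

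The control group held 4 mice of the genotype Senp2flox/flox, whose Senp2 gene carries loxP sites. The knockout group, Senp2-aKO, held 4 mice labelled Senp2flox/flox; Adipoq Cre. These mice also express Cre recombinase from the adiponectin promoter, which is active in fat cells and not in the other cells of the pad. Both groups carry the floxed alleles, ate a high-fat diet (58 kcal% fat) for 12 weeks from the age of 8 weeks, and were kept at 22 to 24 °C. Total RNA of the whole pad was labelled with Cy3 and read on Agilent arrays with 1 colour. Each array is 1 sample, and nothing in the labels says more about the animals than their number within the group, so p-values measure the spread between these samples.

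Mitochondria oxidise the bulk of long and medium chain fatty acids. An acyl-CoA synthetase activates the acid, the carnitine shuttle (Cpt1, a translocase and Cpt2) carries it through the mitochondrial membranes, and rounds of dehydrogenation, hydration, a second dehydrogenation and thiolysis then remove acetyl-CoA units. Peroxisomes shorten very long and branched chains with their own enzymes, beginning with acyl-CoA oxidases that make hydrogen peroxide, and peroxins import those enzymes and build the organelle. White fat mainly stores fatty acids, whereas brown and beige fat oxidise them to make heat.

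Levels are given as the log2 processed signal relative to the 75th percentile of the same array, and differences as Senp2-aKO minus control on that log2 scale, with the standard error (SE) of the fit. A gene passed at a limma p-value below 0.05 after Benjamini-Hochberg adjustment over all 14730 genes. Levels of different genes are not compared with each other, because probes differ in brightness for the same amount of RNA.

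The targeted gene was lower on all 4 knockout arrays, at 2.12 to 2.22 against 2.37 to 2.52 in the controls, a difference of -0.27 (SE 0.08, adjusted p = 0.0507; exact permutation p = 0.0286, two-sided, the smallest that 4 against 4 arrays can give). The pad also holds cells that keep Senp2, and from whole tissue fewer cells of a type and less RNA per cell cannot be told apart. All 8 adipocyte markers were above background on all 8 arrays. Markers of other cells moved with the groups: 15 of 20 skeletal muscle markers and 6 of 7 brown adipocyte markers passed as higher in Senp2-aKO. No spot was saturated and all arrays lay on 1 slide, with the controls in row 1 and the knockouts in row 2, so that the slide row and the genotype cannot be told apart. Before scaling, the 75th percentile of the array signals was 407.7 to 445.9 on control arrays and 324.5 to 381.9 on knockout arrays, a difference that the scaling removes.

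Across the pathway, 4 genes passed as higher in Senp2-aKO tissue and 1 as lower. The higher genes were Cpt1b (4.41-fold), Acot11 (4.07-fold), Acadvl (1.71-fold) and Eci1 (1.56-fold), and the lower gene was Acsl3 (2.13-fold lower). Over all genes tested, 14.4% passed, 7.29% as higher and 7.12% as lower, so the share of members that passed (5 of 49) was not above that background. The direction was less even: 37 of the 49 members had a positive difference and 12 a negative one, with a median of 0.26 against -0.02 over all genes. Of all genes tested, 47.3% had a positive difference. At an unadjusted p below 0.05, 14 members were higher and 6 lower, beside 14.7% and 17.6% of all genes. In 7 members every knockout array lay above every control array and in 3 every one lay below, while the groups overlapped in 39. Over all genes these shares were 11.2% and 15.1%, or 26.3% in either direction.

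**Figure D1:**
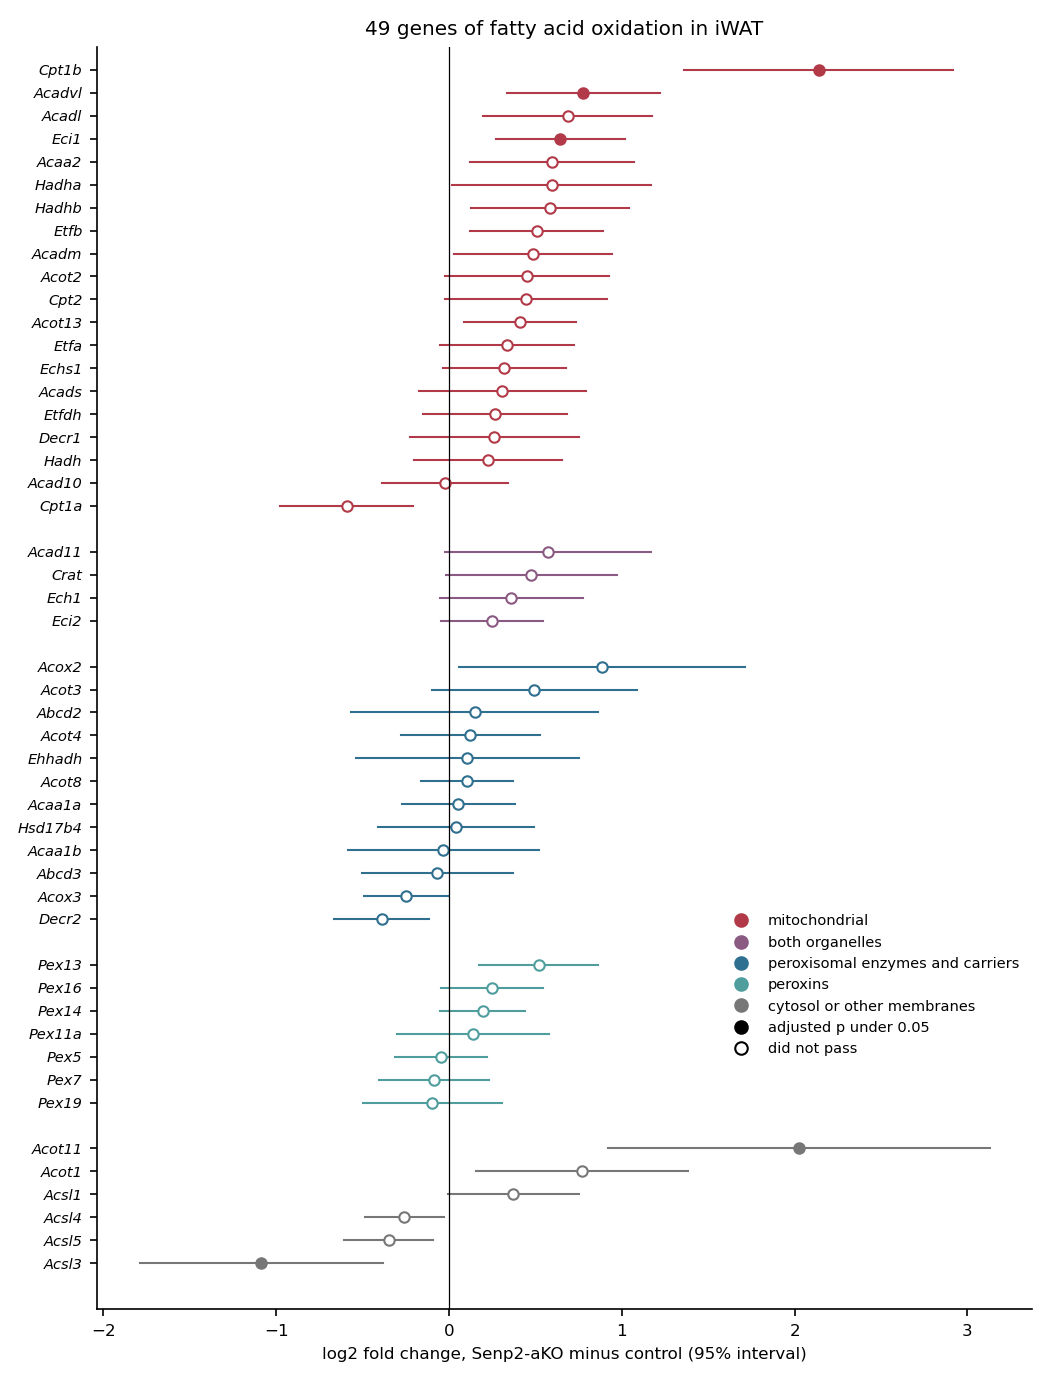
Log2 fold change (Senp2-aKO minus control) of the 49 measured genes, 1 gene per line in blocks by the location of the protein. Points are estimates, lines are 95% intervals of the limma fit on 4 control and 4 Senp2-aKO arrays, and filled points passed at an adjusted p below 0.05. Most mitochondrial genes lie to the right of 0, with Cpt1a at -0.59 on the other side, and the peroxisomal genes lie around 0.

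The promoters of the members were set beside these differences, since most members differed in the same direction. RefSeq promoter sequences (assembly GRCm38.p6) were at hand for 42 of the 50 members, and the 250 bases before each gene start were searched on both strands. None was at hand for Cpt1b, which had the largest difference, or for Crat, Acaa2, Decr1, Hsd17b4, Abcd2, Pex19 and Acot13. A gene with several starts counted if any of them held the motif. Shown first are the whole windows of Eci1 and Acot11, which passed as higher and hold none of the searched motifs, all in lower case. The others are the stretches around a match, in capitals: AGGTCA of Acadvl, which passed as higher, the NRF1 motif of Etfdh, and the C/EBP motif of Acot1, Acads, Ech1 and Pex7, which stand for genes of the cytosol, the mitochondrion, both organelles and the peroxisome. The windows lie on GRCm38.p6 at chr17:24426433-24426682 (Eci1, plus strand), chr4:106805008-106805257 (Acot11, minus strand), chr11:70015495-70015530 (Acadvl, minus strand), chr3:79628870-79628910 (Etfdh, minus strand), chr12:84009344-84009396 (Acot1, plus strand), chr5:115119519-115119556 (Acads, minus strand), chr7:28825139-28825176 (Ech1, plus strand) and chr10:19907748-19907785 (Pex7, minus strand). All of them are upstream of the gene and overlap no other gene of the table.
Eci1: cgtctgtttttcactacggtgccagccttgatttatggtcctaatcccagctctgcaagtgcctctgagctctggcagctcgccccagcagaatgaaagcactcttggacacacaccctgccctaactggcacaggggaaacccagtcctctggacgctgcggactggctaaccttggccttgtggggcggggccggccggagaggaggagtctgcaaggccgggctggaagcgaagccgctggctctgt
Acot11: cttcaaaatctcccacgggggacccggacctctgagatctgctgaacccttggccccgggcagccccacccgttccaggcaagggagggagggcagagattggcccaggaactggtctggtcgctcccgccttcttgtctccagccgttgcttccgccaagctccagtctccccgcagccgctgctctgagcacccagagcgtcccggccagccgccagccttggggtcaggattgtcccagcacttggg
Acadvl: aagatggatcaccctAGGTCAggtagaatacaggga
Etfdh: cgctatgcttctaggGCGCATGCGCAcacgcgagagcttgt
Acot1: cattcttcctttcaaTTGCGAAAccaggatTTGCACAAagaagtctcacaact
Acads: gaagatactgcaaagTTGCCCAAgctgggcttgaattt
Ech1: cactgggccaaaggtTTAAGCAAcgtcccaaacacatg
Pex7: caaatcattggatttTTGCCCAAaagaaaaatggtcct

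The motif of peroxisome proliferator-activated receptors (PPARs) with their partner RXR, was searched as a pair of AGGTCA half-sites in a row with 1 base of any kind between them. It was found in 0 of 42 members and in 0.0407% of the 27018 genes with a promoter, and a looser form with AGGNCA in place of each AGGTCA in 0 of 42 and 0.400%. With forms as rare as these, 0 of 42 says little of the members. The single half-site AGGTCA, which is contained in the stricter of these motifs, occurred in 6 members (14.3%, against 15.8% of all genes): the mitochondrial genes Cpt1a, Acadm, Acadvl and Echs1, the peroxisomal gene Acot4, and Acsl6. The motif of the estrogen-related receptors, TCAAGGTCA, which also contains the half-site, occurred only in Acsl6 (0.422% of all genes). The motif of NRF1, a factor for mitochondrial genes, was searched as TGCGCA followed directly by TGCGC and found in Etfdh alone (0.563% of all genes), and its inner part as GCGC, 2 bases of any kind and GCGC, found in Etfdh, Etfb, Acad10 and Abcd3 (9.52% of members, 5.64% of all genes). The C/EBP motif, searched as TTGCNNAA, was present in 7 members (16.7%, against 10.8% of all genes). Of these, 4 were peroxisomal (Acox2, Acaa1a, Abcd3 and Pex7, 25% of the 16 peroxisomal genes with a promoter) and 1 mitochondrial (Acads, 6.25% of 16), with Ech1 and Acot1 as the other two. These matches describe letters in a short window and say nothing of binding.

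The carnitine shuttle held the largest difference of the pathway and an opposite pair of isoforms. Cpt1b, the form of the carnitine palmitoyltransferase of the outer membrane that is typical of muscle and brown fat, read -1.05, 0.04, -0.68 and 0.29 on control arrays 1 to 4 and 1.60, 1.71, 1.40 and 2.45 on Senp2-aKO arrays 1 to 4. All knockout arrays lay above all control arrays. The difference was 2.14 (SE 0.34, adjusted p = 0.00918), or 4.41-fold with a 95% interval of 2.57 to 7.56, and its other probe gave 1.74 (SE 0.34). Cpt1b passed with any single array left out, at adjusted p of 0.0112 to 0.0292.

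Cpt1a, the isoform of liver and most other tissues, read 3.16, 2.87, 3.29 and 3.24 in the controls and 2.57, 2.17, 2.91 and 2.54 in Senp2-aKO. Only knockout array 3, at 2.91, reached into the range of the controls. The difference was -0.59 (SE 0.17, adjusted p = 0.0506), just outside the threshold, and the other probe of Cpt1a gave -0.58 (SE 0.15). With the mean of both probes in place of the brighter one the adjusted p was 0.0403, and over all other settings it ran from 0.0228 to 0.127. Taking the change of Cpt1b minus the change of Cpt1a on each array, the controls lay between -0.71 and 0.66 and the knockouts at 2.51, 3.04, 1.98 and 3.40, with no overlap. Cpt2, the transferase of the inner membrane, differed by 0.44 (SE 0.20, adjusted p = 0.174), and Crat, which moves short chains between CoA and carnitine, by 0.48 (SE 0.21, adjusted p = 0.167). Neither passed.

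**Figure D2:**
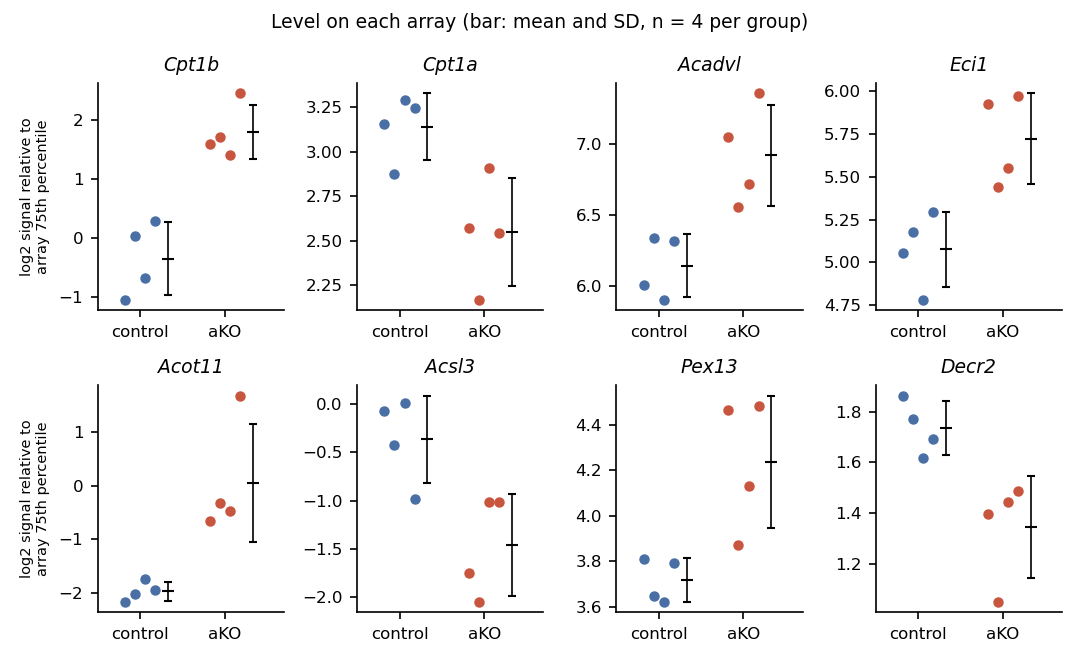
Level of 8 genes on each array, as log2 signal relative to the array's 75th percentile, in 4 control (blue) and 4 Senp2-aKO (red) samples, with the mean and SD of each group as a bar. Each gene has its own axis. Cpt1b, Acadvl, Eci1, Acot11 and Pex13 lie above the controls on all 4 knockout arrays, Acsl3 and Decr2 below, and 1 knockout array of Cpt1a lies within the controls.

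The acyl-CoA dehydrogenases carry out the first dehydrogenation of each round, each for its own range of chain lengths. Acadvl, which takes the longest chains, read 6.01, 6.34, 5.90 and 6.32 in the controls and 7.05, 6.56, 6.72 and 7.35 in Senp2-aKO. Every knockout array was above every control. The difference was 0.78 (SE 0.19, adjusted p = 0.0336). The gene missed the threshold when control 1, 2, 3 or 4 or Senp2-aKO 1 or 4 was left out (adjusted p 0.0565 to 0.0954), and also with quantile normalisation (0.0612) and with no filter on dim probes (0.0556), while the difference stayed between 0.60 and 0.96 in all settings.

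Acadl, the long chain enzyme, read 3.28, 3.41, 3.27 and 3.75 in the controls and 4.23, 3.61, 4.01 and 4.59 in Senp2-aKO, where only array 2 fell within the controls. Its difference of 0.69 (SE 0.21, adjusted p = 0.0654) did not pass, and neither did the 0.49 of Acadm (SE 0.20), the medium chain enzyme, or the 0.31 of Acads (SE 0.21), the short chain enzyme. Listed by chain length the differences were thus 0.78, 0.69, 0.49 and 0.31 from very long to short, but their 95% intervals overlap, from 0.34 to 1.22 at the long end and from -0.18 to 0.79 at the short end. Acad11, a dehydrogenase known from both organelles, stood at 0.57 (SE 0.26, adjusted p = 0.170) and Acad10 at -0.02 (SE 0.16, adjusted p = 0.932). The change of Acadvl minus that of Acad10 was 0.79, 0.87, 0.60 and 0.95 on the knockout arrays and -0.30 to 0.36 in the controls.

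The later steps of the mitochondrial spiral had positive differences in all 5 genes and passed in none, with 3 at an unadjusted p below 0.05. At that level 14.7% of all genes tested were higher. Hadha and Hadhb encode the subunits of the trifunctional protein, which carries out hydration, dehydrogenation and thiolysis of long chains, and are direct neighbours on chromosome 5. Hadha differed by 0.59 (SE 0.25, adjusted p = 0.144) and Hadhb by 0.59 (SE 0.20, adjusted p = 0.0856). Hadha read 2.69, 2.10, 2.30 and 3.27 on the knockout arrays against 1.83 to 2.32 in the controls, so that arrays 2 and 3 fell within the control range. The thiolase Acaa2 differed by 0.60 (SE 0.21, adjusted p = 0.0893), the short chain hydratase Echs1 by 0.32 (SE 0.15) and the short chain dehydrogenase Hadh by 0.23 (SE 0.19).

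Unsaturated fatty acids need extra enzymes that move or reduce double bonds, and of the 5 such genes Eci1 alone passed. Eci1, the enoyl-CoA isomerase of mitochondria, read 5.05, 5.18, 4.78 and 5.29 in the controls and 5.92, 5.44, 5.55 and 5.97 in Senp2-aKO, again without overlap. It rose by 0.64 (SE 0.16, adjusted p = 0.0358). Its call was lost without any single control and without Senp2-aKO 1 or 4 (adjusted p 0.0514 to 0.0947), and with no filter on dim probes (0.0588).

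The 2,4-dienoyl-CoA reductases exist in a form for each organelle. Decr1 of mitochondria differed by 0.26 (SE 0.21, adjusted p = 0.429), and Decr2 of peroxisomes by -0.39 (SE 0.12, adjusted p = 0.0631). Decr2 read 1.86, 1.77, 1.62 and 1.69 in the controls and 1.40, 1.05, 1.44 and 1.49 in Senp2-aKO, so all knockout arrays lay below the controls although the gene missed the threshold. The change of Decr1 minus that of Decr2 was 0.76, 0.36, 0.47 and 1.02 on the knockout arrays and -0.11 to 0.09 in the controls. Ech1 (0.36, SE 0.18) and Eci2 (0.25, SE 0.13), isomerases found in both organelles, did not pass.

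The electron transfer flavoprotein takes electrons from the dehydrogenases and hands them, through Etfdh in the inner membrane, to the respiratory chain. Etfb, its beta subunit, differed by 0.51 (SE 0.17, adjusted p = 0.0806), Etfa, the alpha subunit, by 0.34 (SE 0.17, adjusted p = 0.207) and Etfdh by 0.26 (SE 0.18, adjusted p = 0.348). None of them passed. Etfb has 3 probes, which gave 0.51, 0.54 and 0.28.

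Thioesterases split acyl-CoA into free acid and CoA and so oppose the synthetases. All 7 had positive differences, 3 of them with every knockout array above every control, and 1 passed. Over all genes tested, 47.3% had positive differences, 11.2% had every knockout array above every control and 7.29% passed as higher. Acot11, known as the thioesterase that cold induces in brown fat, read -2.18, -2.03, -1.75 and -1.94 in the controls and -0.67, -0.33, -0.48 and 1.68 in Senp2-aKO. The fourth knockout array stood far above the other 3, which were themselves above all controls. The difference was 2.02 (SE 0.48, adjusted p = 0.0295), or 4.07-fold with an interval of 1.89 to 8.74. Without Senp2-aKO 4 it was 1.48 (adjusted p = 0.00671), and the call was lost without any single control (adjusted p 0.0661 to 0.0819).

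Acot2, Acot1, Acot4 and Acot3 lie side by side on chromosome 12 and make closely related proteins for the mitochondrion (Acot2), the cytosol (Acot1) and the peroxisome (Acot3 and Acot4). Acot1 read -1.71, -2.05, -1.56 and -1.70 in the controls and -1.42, -0.74, -1.48 and -0.30 in Senp2-aKO, above the controls throughout, with a difference of 0.77 (SE 0.27, adjusted p = 0.0901). The difference was 0.45 for Acot2 (SE 0.21), 0.49 for Acot3 (SE 0.26) and 0.12 for Acot4 (SE 0.18), none of which passed. Since these genes are near copies, a probe may take up RNA of a neighbour, and their separate values are uncertain. With that limit, the change of Acot2 minus that of Acot1 was -0.0002, -0.62, -0.08 and -0.56 on the knockout arrays. In the controls it was -0.57 to 0.57. Acot13, at the mitochondrial surface, lay above the controls on all 4 knockout arrays, at 5.45, 5.11, 5.20 and 5.72 against 4.86 to 5.03, with a difference of 0.41 (SE 0.14, adjusted p = 0.0876). Acot8 of peroxisomes differed by 0.10 (SE 0.12).

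The long chain acyl-CoA synthetases, which commit fatty acids to oxidation or to storage, had negative differences in 3 of the 4 measured members, and Acsl3 fell. Over all genes tested, 47.3% had positive differences and 7.12% passed as lower, and 4 genes are too few to tell from these shares. Acsl3, the enzyme of the endoplasmic reticulum and of growing lipid droplets, read -0.07, -0.42, 0.01 and -0.98 in the controls and -1.75, -2.05, -1.01 and -1.01 in Senp2-aKO. The groups did not overlap, though control 4 came within a narrow margin of the highest knockout arrays. It fell by 1.09 (SE 0.31, adjusted p = 0.0499), just inside the threshold. The call was lost without control 1, 2 or 3 or Senp2-aKO 1, 2 or 4 (adjusted p 0.0591 to 0.128), with no filter on dim probes (0.0792) and with the mean of all probes of each gene (0.0509).

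Acsl5, of mitochondria and the endoplasmic reticulum, averaged 1.94 in the controls (SD 0.07, n = 4), the lowest of which read 1.87, and read 1.41, 1.48, 1.62 and 1.84 in Senp2-aKO, below the controls on every array, with a difference of -0.35 (SE 0.11, adjusted p = 0.0700). Acsl4, which prefers arachidonic acid, differed by -0.26 (SE 0.10, adjusted p = 0.118). Acsl1, the main synthetase of adipocytes, differed by 0.37 (SE 0.16, adjusted p = 0.160). On each array the change of Acsl1 minus that of Acsl3 was 2.02, 1.74, 0.85 and 1.23 in the knockouts and -0.54 to 0.87 in the controls, so array 3 fell within the controls.

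In peroxisomes, none of the 19 measured genes passed in either direction in the limma fit. At an unadjusted p below 0.05, Acox2 and Pex13 (2 genes) were higher and Acox3 and Decr2 (2 genes) lower. Over all genes tested, 14.7% were higher and 17.6% lower at that level, and 7.29% and 7.12% passed. The peroxisomal counts were thus not above that background. Acox2, the oxidase of branched chains and bile acid precursors, read -4.96, -4.07, -3.80 and -4.20 in the controls, where it was above background on 3 of 4 arrays, and -3.48, -4.17, -3.26 and -2.58 in Senp2-aKO. Array 2 of the knockouts stayed within the controls, and the difference of 0.89 (SE 0.36, adjusted p = 0.132) did not pass. Acox3, the other oxidase of branched chains, differed by -0.25 (SE 0.11, adjusted p = 0.148), while its second probe gave -0.02.

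The remaining peroxisomal enzymes sat near 0. The bifunctional enzymes Ehhadh and Hsd17b4, which carry out hydration and the second dehydrogenation, differed by 0.11 (SE 0.28) and 0.04 (SE 0.20), and the thiolases Acaa1a and Acaa1b by 0.05 (SE 0.14) and -0.03 (SE 0.24). The thiolase genes are near copies, so a probe may take up RNA of both. The change of Acaa1a minus that of Acaa1b was mixed, at 0.26, 0.44, -0.06 and -0.29 on the knockout arrays against -0.13 to 0.14 in the controls. Ehhadh read 0.97 to 1.30 in the controls, and the knockouts spread to both sides of that range, from 0.50 on array 2 to 1.97 on array 4. The carriers of very long and long chain acyl-CoA into peroxisomes, Abcd2 and Abcd3, differed by 0.15 (SE 0.31) and -0.07 (SE 0.19). For Hsd17b4 the 95% interval ran from -0.41 to 0.49, which leaves room for changes of the size seen in the mitochondrial genes.

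Over all genes tested, 11.2% had every knockout array above every control. Among the 7 peroxins this held for 1 gene, a share near that background: Pex13. This part of the docking complex in the peroxisomal membrane read 3.81, 3.65, 3.62 and 3.79 in the controls and 4.46, 3.87, 4.13 and 4.48 in Senp2-aKO, with a difference of 0.52 (SE 0.15, adjusted p = 0.0531) and of 0.50 (SE 0.25) by its other probe. Its docking partner Pex14 differed by 0.19 (SE 0.11) and Pex16, which helps insert membrane proteins, by 0.25 (SE 0.13). The import receptors Pex5 and Pex7 differed by -0.05 (SE 0.12) and -0.08 (SE 0.14), Pex19, the chaperone of membrane proteins, by -0.10 (SE 0.18), and Pex11a, which acts in division, by 0.14 (SE 0.19). None of the 7 passed.

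Set side by side, the 20 mitochondrial genes had a median difference of 0.45 (1.37-fold) and the 19 peroxisomal genes one of 0.10 (1.07-fold), beside -0.02 over all genes tested. Of the mitochondrial genes 18 were positive, 3 passed as higher and 0 as lower in the limma fit, and the unadjusted p was below 0.05 in 10 higher genes and 1 lower gene. Over all genes tested, 47.3% were positive, 7.29% passed as higher and 7.12% as lower. At an unadjusted p below 0.05 the shares of all genes were 14.7% higher and 17.6% lower. Of the peroxisomal genes 12 were positive. The peroxisomal enzymes and carriers (median 0.08) and the peroxins (median 0.14) were alike in this. The 4 genes with a place in both organelles, Crat, Ech1, Eci2 and Acad11, had a median of 0.42, with all 4 positive and none passing. Adding Crat and Ech1 to the mitochondrial side and Eci2 and Acad11 to the peroxisomal side left the medians at 0.45 and 0.11, and without Cpt1b the mitochondrial median was 0.44.

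The same contrast was read on each array as the mean deviation of each gene from its control mean. The mitochondrial mean was -0.08, 0.07, -0.18 and 0.20 on control arrays 1 to 4 and 0.60, 0.08, 0.34 and 0.86 on knockout arrays 1 to 4. The peroxisomal mean was -0.03, 0.02, -0.01 and 0.02 in the controls and 0.26, -0.27, 0.02 and 0.43 in the knockouts. Taken alone, neither mean set all knockout arrays above the controls. On Senp2-aKO 2 the mitochondrial mean lay within the controls and the peroxisomal mean lay below all of them. The mitochondrial minus the peroxisomal mean was -0.05, 0.05, -0.17 and 0.18 in the controls (SD 0.15, n = 4) and 0.34, 0.35, 0.32 and 0.43 in the knockouts (mean 0.36, SD 0.05, n = 4). On that scale all knockout arrays lay above all control arrays, and they lay close together. Without Cpt1b the knockouts stood at 0.27, 0.25, 0.25 and 0.32 against -0.17 to 0.15 in the controls. No p is given for this difference, since it is a mean over genes chosen for their pathway, and it describes these 8 samples. The difference between the medians of the organelles ran from 0.26 to 0.45 over all processing settings and with any single array left out.

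**Figure D3:**
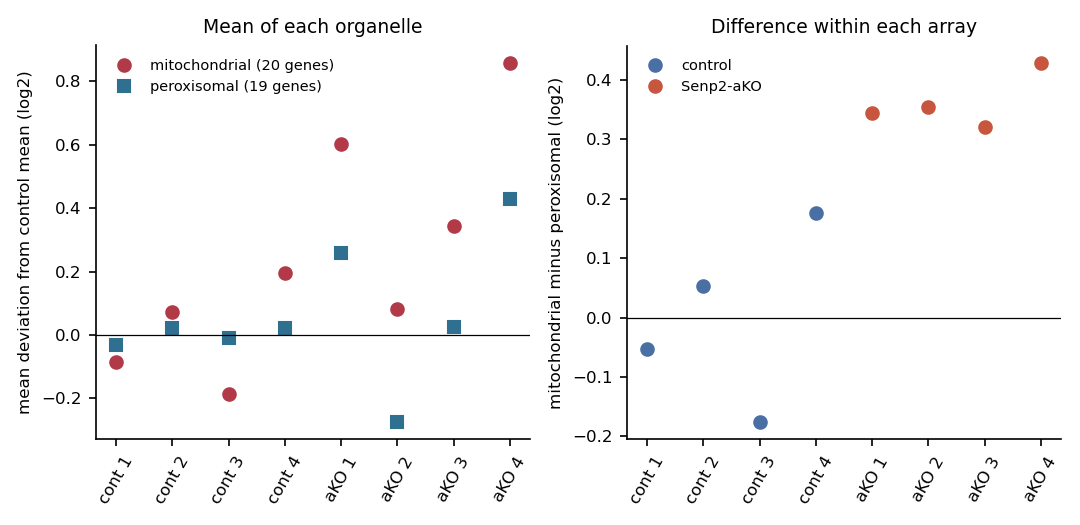
Left, mean deviation from the control mean (log2) of the 20 mitochondrial genes (red circles) and the 19 peroxisomal genes (blue squares) on each of 4 control and 4 Senp2-aKO arrays. Right, the mitochondrial minus the peroxisomal mean on the same arrays, which is 0.32 to 0.43 in Senp2-aKO and -0.17 to 0.18 in the controls.

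The spread among knockout samples was wide: the mean deviation over all 49 members was -0.07 to 0.08 on the control arrays and -0.07 to 0.68 on the knockout arrays. Senp2-aKO 4 was the highest of the knockout arrays in 40 of the 49 genes and Senp2-aKO 2 the lowest in 41. On Senp2-aKO 1, 39 members lay above all controls, and on arrays 2, 3 and 4 this held for 10, 27 and 42. Senp2-aKO 2 had 21 members below all controls, against 5 or 6 on each of the other arrays. Those 21 were mostly peroxisomal: 13 of 19 peroxisomal genes and 5 of 20 mitochondrial genes. On array 4 the above-control genes were 19 of 20 mitochondrial and 16 of 19 peroxisomal. These counts by array were not made over all genes tested, so no background share stands beside them. Whether other genes moved alike on these arrays was not tested. The mean deviation over all genes was 0.02, -0.04, 0.03 and 0.03 on knockout arrays 1 to 4.

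Senp2-aKO 2 also stood apart in lymphocyte markers. The mean deviation over the 5 measured B lymphocyte markers was 4.35 there and -1.25 to 1.63 on the other arrays, and over 5 T lymphocyte markers it was 3.03 against -1.02 to 0.64. The adipocyte marker mean was -0.44 on that array and -0.18 to 0.10 on all others, but the markers did not move together. Lep and Pparg were below all controls on every knockout array and lowest on Senp2-aKO 2, at 2.61 and 4.80. On the same array Cidec (8.78) and Fabp4 (9.70) lay above all controls, and Adipoq, Plin1, Lipe and Retn lay within the control range. Without Senp2-aKO 2, 16 members passed as higher and 1 as lower, and over all 14730 genes 1356 then passed as higher (1074 with all arrays) and 1472 as lower (1049 with all arrays). On the mitochondrial side 10 then passed as higher (Cpt1b, Cpt2, Acadl, Acadm, Acadvl, Hadhb, Eci1, Etfb, Acaa2 and Acot13), and on the peroxisomal side Acox2, Abcd2 and Pex13 as higher and Decr2 as lower. The medians without that array were 0.56 for the mitochondrial and 0.21 for the peroxisomal genes. The part of lymphocytes in these values was not tested.

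**Figure D4:**
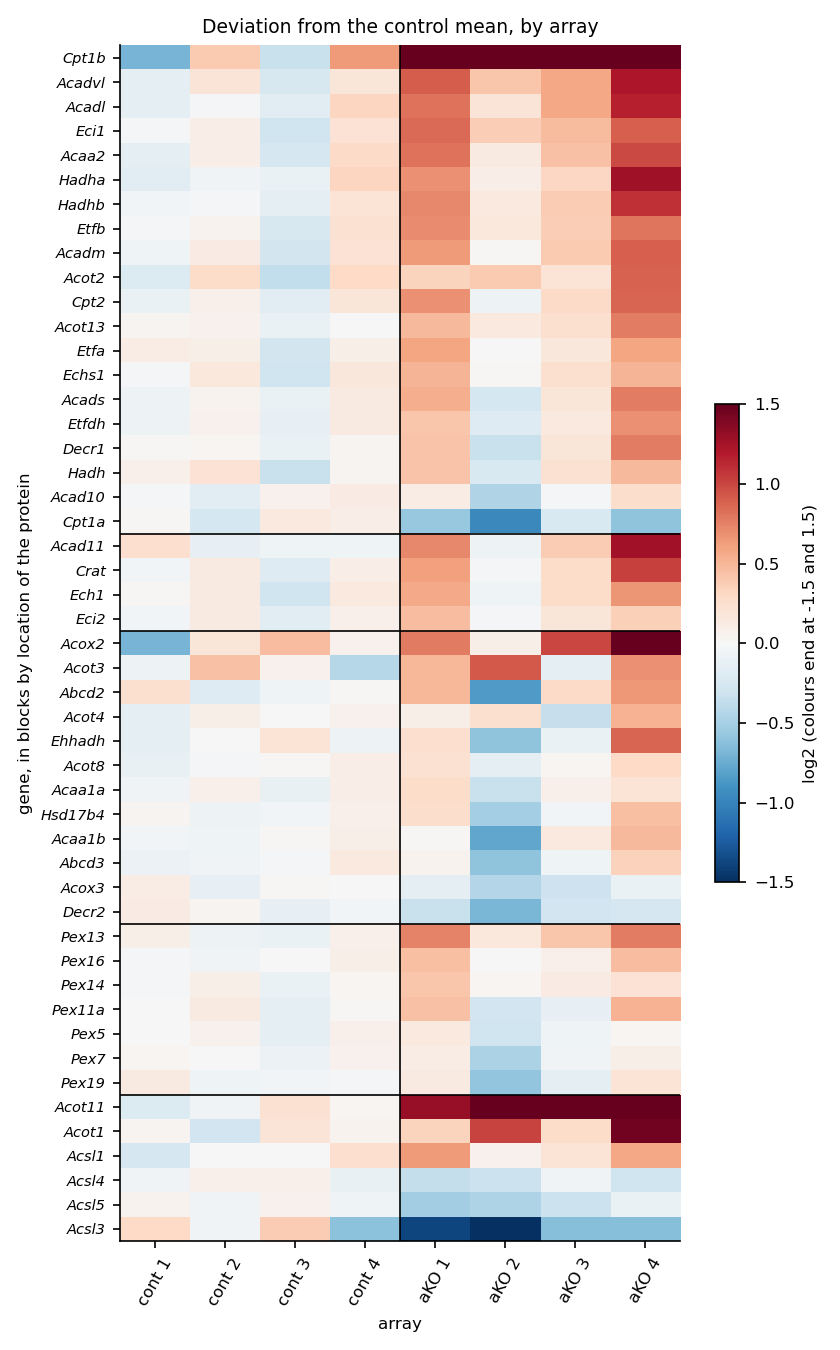
Deviation from the control mean (log2, colours end at -1.5 and 1.5) of the 49 genes on each array, in blocks from top to bottom: mitochondrial, both organelles, peroxisomal enzymes and carriers, peroxins, cytosol or other membranes. Senp2-aKO 2 is paler or bluer than the other knockout arrays in most genes, while Cpt1b and Acot11 are dark red on all 4 and Acsl3 is blue on all 4.

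Markers of muscle and of brown fat, tissues that use the Cpt1b isoform, were higher in the same knockout samples. The mean deviation over 20 skeletal muscle markers was -1.29, -1.24, 1.62 and 0.91 in the controls and 3.04, 3.66, 4.33 and 3.90 in Senp2-aKO, with a median difference of 4.10. In the controls 18 of these 20 markers were above background on all 4 arrays, and Mylpf and Tnni1 on 1 and 2. Over 7 brown adipocyte markers it was -0.32, 0.31, -0.13 and 0.14 on control arrays 1 to 4 and 2.95, 3.09, 2.76 and 4.12 on knockout arrays 1 to 4, and Ucp1, the uncoupling protein of brown fat, differed by 6.36. On these arrays, in the same order, Cpt1b read -1.05, 0.04, -0.68 and 0.29 in the controls and 1.60, 1.71, 1.40 and 2.45 in the knockouts. The part of either cell type in the differences of the members was not tested.

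Other genes of the same routes, which are no members, were read in the same fit. Of 30 other mitochondrial genes of fatty acid metabolism 4 passed as higher and 0 as lower in the limma fit (8 and 1 at an unadjusted p below 0.05), with a median of 0.22. Over all genes tested the shares were 7.29% and 7.12% (14.7% and 17.6% unadjusted). Among the 4 that passed were Slc22a5, the carnitine transporter of the plasma membrane (0.66, adjusted p = 0.00806), and Acss1, which activates acetate in mitochondria (1.04, adjusted p = 0.0283). The translocase of the carnitine shuttle, Slc25a20, differed by 0.54 (SE 0.25, adjusted p = 0.186). With single arrays left out, the call of Slc22a5 held throughout, and that of Acss1 was lost without control 1, 3 or 4 or Senp2-aKO 1 or 4 (adjusted p 0.0615 to 0.0820).

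Of 42 other peroxisomal genes 37 were measured, 2 passed as higher and 3 as lower, and the median was 0.03. The share that passed in either direction was not above the 14.4% of all genes tested (7.29% higher, 7.12% lower). Slc27a2, which activates very long chain fatty acids, read -3.06, -2.79, -3.45 and -3.91 in the controls and -1.42, -1.36, -0.69 and 0.73 in Senp2-aKO, without overlap, and rose by 2.62 (SE 0.48, adjusted p = 0.0140). Pex6 and Pex26, an ATPase that recycles Pex5 and its membrane anchor, went opposite ways: Pex6 rose by 0.49 (adjusted p = 0.0377) and Pex26 fell by 0.67 (adjusted p = 0.00918). The call of Pex6 was lost without any single array other than Senp2-aKO 2 (adjusted p 0.0502 to 0.101). The lower genes Pex5l (-2.25, adjusted p = 0.00418) and Abcd4 (-0.55, adjusted p = 0.0489) resemble peroxisomal proteins by sequence but are known for ion channel trafficking and for cobalamin transport from lysosomes. Abcd4 lost its call without any single control and without Senp2-aKO 1 or 4 (adjusted p 0.0615 to 0.125). Crot, which makes carnitine esters in peroxisomes, differed by -0.31 (SE 0.14, adjusted p = 0.176), and catalase (Cat), which removes the hydrogen peroxide, by 0.13 (SE 0.16, adjusted p = 0.601).

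Among 12 regulators of the pathway and their known targets, 3 passed as higher and 0 as lower in the limma fit (6 and 2 at an unadjusted p below 0.05). Beside them stand 7.29% and 7.12% of all genes tested (14.7% and 17.6% unadjusted). Ppargc1a, the coactivator of mitochondrial genes, read -0.14, 0.18, -0.72 and -0.41 in the controls and 0.85, 1.75, 0.66 and 1.69 in Senp2-aKO and rose by 1.51 (SE 0.30, adjusted p = 0.0178; 0.0510 without control 1). Pdk4, which turns off pyruvate dehydrogenase, rose by 2.21 (SE 0.23, adjusted p = 0.00367), and Lpin1, a phosphatidate phosphatase that also acts as a coactivator, rose by 0.91 (SE 0.17, adjusted p = 0.0141). Ppara, the receptor known for driving both mitochondrial and peroxisomal oxidation, differed by 0.71 (SE 0.20, adjusted p = 0.0503) with all 4 knockout arrays above the controls, at 0.89 to 1.63 against 0.29 to 0.88. The 2 regulators that were lower at an unadjusted p below 0.05 are named after their values were seen: Pparg, the receptor of adipocyte differentiation, differed by -0.55 (SE 0.18, adjusted p = 0.0717) with all 4 knockout arrays below the controls, and Esrrg, an estrogen-related receptor, by -0.82 (SE 0.25, adjusted p = 0.0664) with overlap.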

How the data were processed

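Gene expression was measured in iWAT of 4 control and 4 Senp2-aKO mice, grouped by the labels. Per the file headers, the values deposited for each spot (processed signal, median signal, local background median) are intensity values read by Agilent Feature Extraction (version 11.5.1, per the submitters' processing notes), background-subtracted and detrended within the array for the processed signal, not scaled from array to array. Flags of the unit other, deposited as 0 or 1 for every spot, mark signal above background, saturation and outliers. The 8 sample columns of a deposited normalised matrix match no label and were not used here.

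The arrays held 62976 spots each, 3671 of them controls. From the log2 of each processed signal, the log2 of the 75th percentile over all non-control spots of that array was subtracted. Spots of a probe were averaged without outlier flags, which left out 269 of 55681 probes. Probes flagged as well above background on 4 or more of the 8 arrays were kept (30508 probes, 19231 with a gene name). Names came from the RefSeq accession of the probe through the RefSeq gene table of the assembly GRCm38.p6, and the brightest kept probe stood for its gene. The filter counts arrays of either group, so a gene high in 1 group can pass through that group alone.

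The comparison used limma 3.58.1 (R 4.3.3, data.table version 1.17.8), checked on simulated data, with Benjamini-Hochberg adjustment over 14730 genes. The simulated arrays of both groups had the spread of the controls and no shift shared by the genes of an array. That check therefore does not cover the wider spread of the knockout arrays. Single quantities had an exact permutation test over 70 assignments. The labels do not pair samples. The alternatives were quantile normalisation, normexp on the median signals (offset 50), the filter, the mean of a gene's probes, array weights, a replicate block and each array left out. With 4 arrays a group, their number limits the precision. All members were named, and of the other pathway genes those that passed and Ppara, Ppargc1a, Slc25a20, Crot and Cat, except a few that are not reported here. The members and lists were chosen with earlier results of these data known. Besides the lists in the report, 5 measured macrophage markers (none passed, 1 higher at an unadjusted p below 0.05, median difference 0.02) and 2 mammary epithelium markers (none passed, both higher at an unadjusted p below 0.05, mean deviation 0.62 to 2.87 in Senp2-aKO and -0.65 to 0.62 in controls) were read. Of 8 adipocyte markers 0 passed as higher and 1, Lep, as lower.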

Additional observations from a re-analysis of the deposited data

Results flagged for a closer look

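The highest and lowest array of each group was compared with its nearest neighbour for the members and the other named genes, 134 groups of 4 arrays in all, and 3 values stood apart by Dixon's criterion at its 95% critical value. Chance gives about 1 in 20 groups. Etfa, the alpha subunit of the electron transfer flavoprotein, read 5.64 on control 3, with the next control at 6.01 (0.928 of the range). Acot11 read 1.68 on Senp2-aKO 4, with the next knockout at -0.33 (0.855 of the range). Pdk4 read 6.92 on Senp2-aKO 4, with the next knockout at 5.97 (0.956 of the range).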

How the results depend on the processing

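The sign of every member that passed was the same in all settings. Signs of other members turned in 2 genes with quantile normalisation (Acaa1a and Hsd17b4), 1 with normexp (Acaa1a), 6 with array weights and 6 without Senp2-aKO 2 (in both cases Acad10, Acaa1b, Abcd3, Pex5, Pex7 and Pex19), 4 without Senp2-aKO 4, 2 without Senp2-aKO 1 and 1 without control 4. The cause of the moves given here was not tested, except that the fits without 1 array have fewer samples and the looser filter tests 20915 genes.

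The number of members that passed as higher was 7 with normexp, 2 with no filter and 26 with array weights, which gave Senp2-aKO 2 a weight of 0.170 and the other arrays 0.730 to 2.23, and as lower it was 3 with quantile normalisation, 3 with normexp, 0 with no filter, 2 with the stricter filter and 3 with weights. Mitochondrial genes passed as higher in 1 case with no filter and 16 with weights, and as lower in 1 (Cpt1a) with quantile normalisation, normexp, the stricter filter, the mean of probes and weights. Peroxisomal genes passed as higher in 1 case with quantile normalisation, 2 with normexp, 1 with the stricter filter and 3 with weights, and as lower in 1 with quantile normalisation and 1 with weights. Other mitochondrial genes gave 2 higher with no filter and 10 with weights, and 1 lower with quantile normalisation and 1 with weights. Other peroxisomal genes gave 1 higher with no filter, 5 higher with weights and 5 lower with weights. Regulators gave 5 higher with weights, and 1 lower with quantile normalisation, normexp and weights. Over all genes, weights gave 1832 higher and 1932 lower, and no filter 689 lower. Senp2 passed at -0.26 with quantile normalisation, -0.31 with normexp, -0.27 with the stricter filter and -0.25 with weights.

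With the replicate block, 3 members passed as higher (Cpt1b, Eci1 and Acot11) and 1, Cpt1a, as lower, while Acadvl (adjusted p = 0.0559) and Acsl3 (adjusted p = 0.0889) did not pass, no other peroxisomal gene passed as higher (0), 1 regulator passed as lower, and 569 of all genes were lower; same-numbered samples correlated at -0.02, -0.08, 0.14 and 0.11, so the numbers were not taken as pairs.

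With each array left out in turn, the ranges were 1 to 16 members higher and 0 to 2 lower, 1 to 10 mitochondrial genes higher and 0 to 1 lower, 0 to 3 peroxisomal genes higher and 0 to 1 lower, 1 to 7 other mitochondrial genes higher and 0 to 1 lower, 1 to 3 other peroxisomal genes higher and 2 to 5 lower, 2 to 5 regulators higher and 0 to 1 lower, 434 to 1356 of all genes higher and 280 to 1472 lower, and a Senp2 difference of -0.30 to -0.25. The median of the mitochondrial genes stayed at 0.31 to 0.56 and that of the peroxisomal genes at -0.02 to 0.21. Dim genes near background, such as Acox2, and Acsl6 with a difference of 0.44 (SE 0.40) only when no filter was used, are limited by signal.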
